A study of Mus musculus with 12 samples.

Results

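The measurement described here is the difference in ribosome association between samples labelled shGpr151 and control, beyond their difference in the lysate, taken gene by gene. The label shGpr151 stands for a hairpin against Gpr151. For each gene the shGpr151 over control ratio in the immunoprecipitate (IP) was divided by the same ratio in Input, and the log2 of the result is called the interaction. A positive interaction means that the IP ratio exceeded the Input ratio, whichever of the ratios moved. Members were the genes with a summed count of at least 20 in each of the 2 Input groups, and 5381 of the 9073 listed genes qualified. All 12 samples entered, in 4 groups of 3 columns: Input and IP from adult mouse dorsal root ganglion (DRG) neurons given AAV-control, and Input and IP from those given AAV-shGpr151.

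All animals had the genotype RPL22HA+/+;Advillin-Cre+. This is the RiboTag design, in which the ribosomal protein Rpl22 carries a haemagglutinin (HA) epitope in cells that express Cre, here sensory neurons through the Advillin promoter. An anti-HA antibody then pulls down ribosomes of those cells with their mRNA, and Input is the lysate before the pulldown, which also holds RNA of glia, fibroblasts and other cells. The labels do not state ages or how many animals stand behind a sample, and they give both neurons cultured after sciatic nerve preconditioning and freshly collected ganglia as the source. Over all genes the 3 columns of a group differed by about counting noise, with a chi-square per degree of freedom of 0.981 to 1.05 within groups against 1.80 to 156 between them. In 41 single genes, 38 of them members, the columns of at least 1 group spread beyond counting (chi-square p below 0.0001), among them Kxd1, Cep85, Cnbd2 and Vmn2r63 of those named by rule, whose intervals are therefore too narrow. The columns were summed, so a group is 1 sample and no difference reported here has a replicate check. The 95% intervals cover counting error only, because 1 sample per group gives no spread between samples. PCR duplicates carry no molecular identifiers here, so they cannot be told apart from separate molecules.

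Ribosome association follows the amount of an mRNA in the neuron and how it is engaged by ribosomes. mRNAs of the translation apparatus begin with a C and a run of pyrimidines, the 5′ terminal oligopyrimidine (TOP) motif, through which growth signalling controls their loading onto ribosomes. In injured sensory neurons the regenerative state draws on local translation, retrograde transport and lysosome positioning along the axon. In bulk samples such as these, fewer cells of a type and less RNA per cell cannot be told apart.

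The control libraries summed to 6332991 counts in Input and 4245486 in IP, and the shGpr151 libraries to 6148538 and 3285258. The median member had 81 and 77 counts in the Input libraries and 203 and 161 in the IP libraries, in the order control and shGpr151. Input was therefore the less precise side of the interaction for most members. Gpr151 itself was not a member, with 24 and 13 Input counts. Its IP counts were 314 and 250, or 74.0 and 76.1 CPM (counts scaled to a common library total), so the target was not lower in the shGpr151 IP and groups are named by their labels. Its log2 ratio was -0.86 (-1.84 to 0.11) in Input and -0.002 (-0.24 to 0.24) in IP. The interaction of Gpr151, 0.86 on the log2 scale (-0.14 to 1.86), thus came from its lower and few Input counts.

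IP and Input did not move together. An interaction was called where it was at least 1.5-fold and at least 3 counting standard errors from 0, and 544 of 5381 members met this, or 10.1%. Of them 217 were higher (4.03%) and 327 lower (6.08%). Component shifts were counted at 1.2-fold and 2 counting standard errors. In Input 726 members were shifted higher (13.5%) and 771 lower (14.3%), and in IP 362 were shifted higher (6.73%) and 336 lower (6.24%). The median absolute log2 ratio was 0.263 in Input and 0.164 in IP, with median counting standard errors of 0.232 and 0.152.

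**Figure D1:**
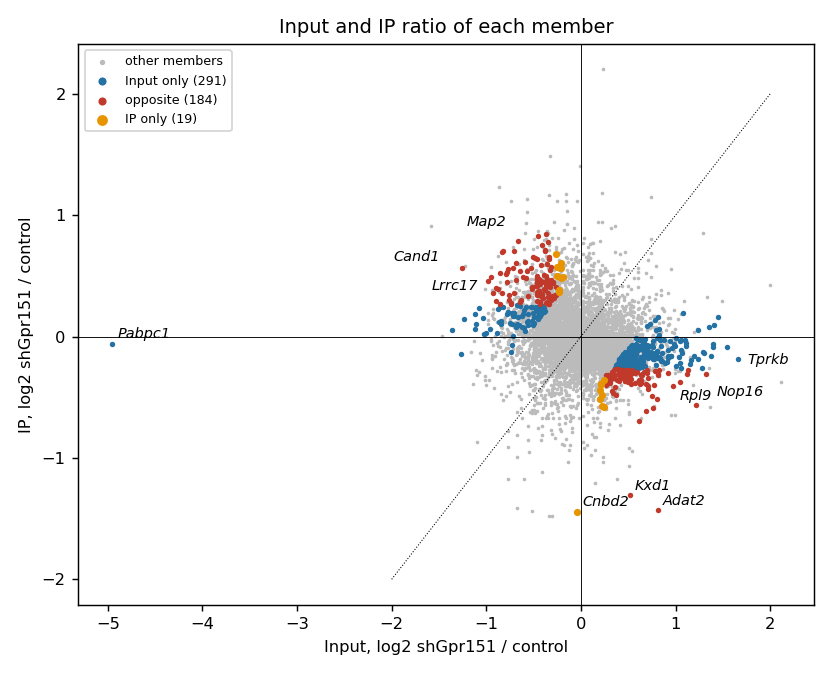
Each point is 1 of 5381 members, with its Input log2 ratio of shGpr151 over control on the x axis and its IP log2 ratio on the y axis; the dotted line marks equal ratios, and colours mark called genes by class. Called genes spread along the axis of Input and into the upper left and lower right quadrants, whereas the 19 genes of the IP only class sit at the edge of the opposite class, except Cnbd2.

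Shared movement was rare. Of 362 members shifted higher in IP, 100 were shifted lower in Input and 8 higher, and 254 met neither Input criterion. Of 336 members shifted lower in IP, 92 were shifted higher in Input and 20 lower. Across members the correlation of the IP and Input ratios was -0.18 (Pearson) and -0.24 (Spearman). It was -0.31 over the 2909 members with at least 50 counts in all 4 libraries and -0.36 over the 1087 with at least 200. These are descriptions across genes of the same 4 libraries, and genes are not independent replicates.

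Called genes fell mainly into 2 classes. Opposite shifts in Input and IP were found in 184 genes (3.42%), 97 with a higher and 87 with a lower interaction. A shift in Input with an IP ratio under 1.2-fold was found in 291 genes (5.41%), 81 higher and 210 lower. A shift in IP with an Input ratio under 1.2-fold was found in 19 genes (0.353%). A further 2 genes shifted in the same direction in both, and 48 called genes were left unresolved because 1 ratio was large but within 2 counting standard errors.

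The IP only class held 10 genes with a higher and 9 with a lower interaction, and in 18 of the 19 the Input ratio had the opposite sign, just under the limit. In the 10 higher genes the Input ratio ran from -0.26 to -0.19. Riok1, a kinase of small ribosomal subunit maturation, had 494 and 406 in Input and 199 and 255 in IP, an interaction of 0.95 (0.62 to 1.27). Riok1 was thus lower in the Input library labelled shGpr151 and higher in its IP.

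Other members of this class were the lysosomal amino acid transporter gene Slc7a14 at 0.83 (0.49 to 1.16), the DNA damage ubiquitin ligases Rnf168 at 0.78 (0.35 to 1.21) and Rnf8 at 0.79 (0.35 to 1.22), and the histone acetyltransferase gene Kat8 at 0.62 (0.29 to 0.94). Among the 9 lower genes, Mrps16, of the small mitochondrial ribosomal subunit, had 1168 and 1342 Input counts and 552 and 315 IP counts, an interaction of -0.70 (-0.93 to -0.47). Bst2, the antiviral tether, had 126 and 147 in Input and 285 and 152 in IP, an interaction of -0.82 (-1.27 to -0.38). Siva1, a proapoptotic factor, stood at -0.71 (-1.00 to -0.43), the signal peptidase subunit gene Sec11c at -0.60 (-0.81 to -0.38) and the ER to Golgi SNARE gene Bet1 at -0.64 (-1.04 to -0.24). No list used here held more than 1 of these 19 genes, although Rnf168 and Rnf8 act in the same repair pathway.

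Cnbd2 was the 1 gene of the class with an Input ratio under 1.1-fold. Its Input counts were 73 and 70, and its IP counts 99 and 29, an interaction of -1.41 (-2.17 to -0.64). Its IP columns were 49, 43 and 7 in control and 1, 24 and 4 in shGpr151, so the groups overlapped and columns of the same group differed widely. The call was lost when any 1 of 4 IP columns was left out, at -1.00 without control 1, -1.17 without control 2, -0.87 without shGpr151 1 and -1.04 without shGpr151 3, and without shGpr151 2 the value was -3.35.

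The genes with the interaction interval farthest below 0 among the 87 lower in IP and higher in Input are given first. Kxd1, a subunit of the BORC complex that couples lysosomes to kinesin for transport into axons, had IP columns of 149, 122 and 102 counts in control and 59, 22 and 39 in shGpr151. Its Input columns were 19, 24 and 33 in control and 23, 59 and 25 in shGpr151. The IP groups did not overlap and the Input groups did, and the interaction was -1.82 (-2.34 to -1.31), a 3.54-fold lower ratio. Without the second column of Input shGpr151 the interaction was -1.25, still called.

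Nop16, a nucleolar factor of large ribosomal subunit assembly, had 85 and 209 Input counts and 1124 and 723 IP counts. Its Input log2 ratio was 1.32 and its IP ratio -0.31, an interaction of -1.63 (-2.02 to -1.24). Rpl9, a large-subunit ribosomal protein, had Input columns of 318, 264 and 246 against 583, 607 and 589, and IP columns of 672, 733 and 683 against 458, 447 and 437. The groups did not overlap in either fraction, in opposite directions, and the interaction was -1.44 (-1.59 to -1.28). Cacybp, an adaptor of ubiquitin ligases, had 85 and 184 in Input and 710 and 469 in IP, an interaction of -1.41 (-1.81 to -1.00).

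Timm10, a chaperone of the mitochondrial intermembrane space, had 607 and 1053 Input counts and 670 and 431 IP counts, an interaction of -1.13 (-1.35 to -0.90). Mrpl21, of the large mitochondrial ribosomal subunit, stood at -1.23 (-1.49 to -0.97) on 375 and 702 in Input and 593 and 383 in IP. In Rpl9, Timm10 and Mrpl21 alike the Input ratio was farther from 0 on the log2 scale than the IP ratio. Low counts limited Nudt7, a peroxisomal coenzyme A hydrolase, at -1.78 (-2.64 to -0.92) on 21 and 48 Input counts, and Adat2, a tRNA deaminase subunit, at -2.24 (-3.38 to -1.11) on 13 IP counts in shGpr151. The opposite class with both directions was 3.42% of all members. By list, the 87 genes held 4 of 75 mitochondrial ribosomal proteins and 3 of 48 proteasome genes. They also held 3 of 71 splicing factors and 3 of 39 coat and ER to Golgi transport genes. They held 2 each of 46 large-subunit ribosomal proteins, 21 mitochondrial import, 52 ubiquitin and 41 ER translocon genes. Another 2 each came from 30 cholesterol and fatty acid synthesis genes and 41 antioxidant genes.

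The 97 genes higher in IP and lower in Input were spread over many lists. They held 3 chromatin genes and 2 each of the mitochondrially encoded, cholesterol and fatty acid synthesis, splicing, Zfp and matrix lists, the class with both directions being 3.42% of members. Map2, the dendritic microtubule-associated protein, had IP columns of 68, 63 and 70 in control and 78, 97 and 86 in shGpr151, and Input columns of 46, 23 and 30 against 21, 20 and 14. On CPM neither fraction overlapped between the treatments, and the interaction was 1.53 (0.99 to 2.08), or 2.89-fold. Lrrc17, a secreted leucine-rich repeat protein, had 2075 and 1129 Input counts and 656 and 750 IP counts, an interaction of 1.38 (1.19 to 1.56). Furin, the proprotein convertase that matures growth factors, had 708 and 446 in Input and 191 and 222 in IP, an interaction of 1.19 (0.86 to 1.52). The IP shGpr151 library was the smallest, so raw IP counts of these genes differ less than the scaled ratios.

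Cand1, which exchanges substrate receptors of cullin ligases, stood at 1.82 (1.02 to 2.63) on 51 and 21 Input counts. Col18a1, a basement membrane collagen, had 138 and 73 in Input and 738 and 776 in IP, an interaction of 1.30 (0.86 to 1.73). Ythdc1, the nuclear reader of methylated adenosine in RNA, had 12930 and 9131 in Input but only 234 and 293 in IP, an interaction of 1.13 (0.88 to 1.38). Ythdc1 was thus a transcript mostly left behind by the pulldown, as were Mrps26, with 3053 and 2122 in Input and 140 and 176 in IP, and Arhgef40, with 4371 and 2416 against 277 and 284. The motor gene Kif1c, a kinesin of vesicle transport, stood at 1.23 (0.62 to 1.83) and was not depleted, with 68 and 39 in Input and 383 and 416 in IP.

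**Figure D2:**
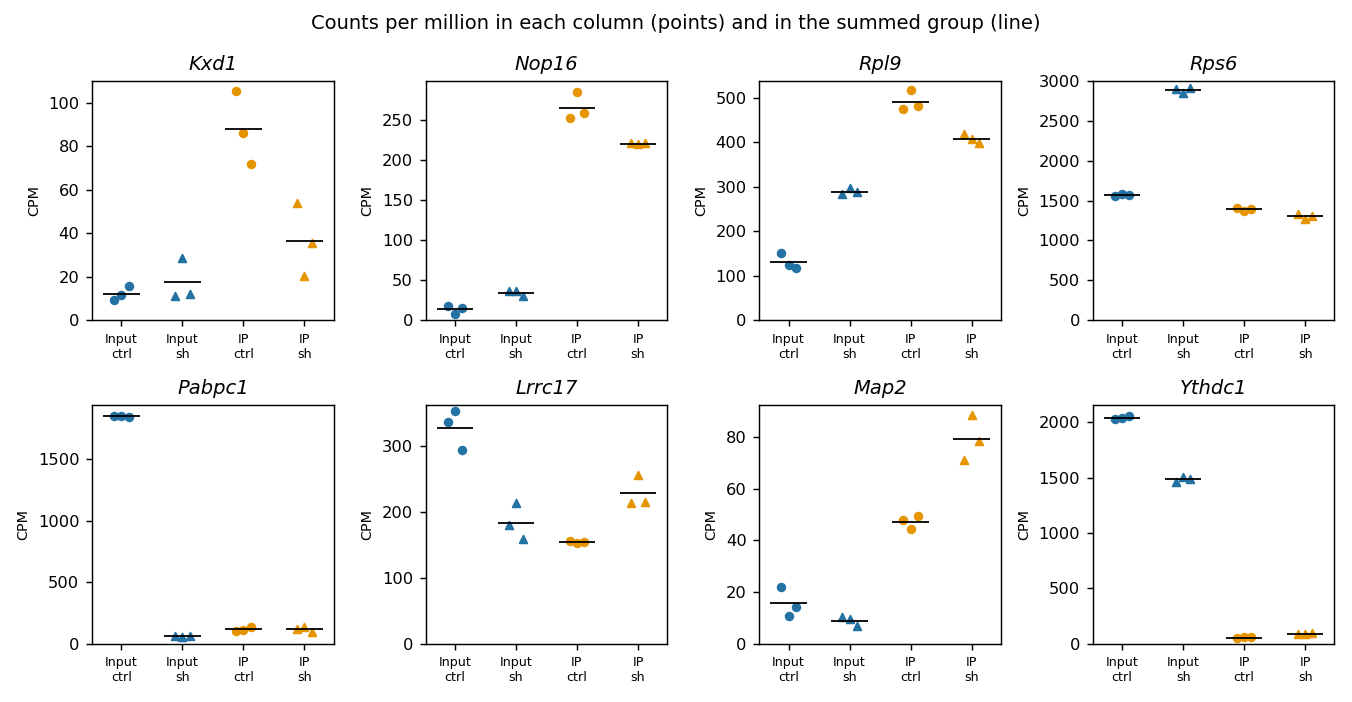
CPM of 8 named genes in every column (points) and in the summed group (line), blue for Input and orange for IP, circles for control and triangles for shGpr151; each y axis starts at 0. Nop16, Rpl9 and Rps6 are higher in Input shGpr151 than in Input control, Lrrc17, Map2 and Ythdc1 are lower there and higher in IP shGpr151, and Pabpc1 differs in Input only.

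The largest interaction among members was that of Pabpc1, the cytoplasmic poly(A)-binding protein, and it arose in Input. Its Input columns were 3907, 3903 and 3892 counts in control and 132, 114 and 125 in shGpr151. Its IP columns were 149, 163 and 190 against 127, 153 and 104, which overlap on CPM. The Input log2 ratio was -4.96 and the IP ratio -0.06, an interaction of 4.90 (4.66 to 5.14), or 29.8-fold.

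The other 80 higher genes of the Input only class had far smaller values. Wdr45b, an autophagy protein, had 68 and 26 Input counts and 676 and 559 IP counts, an interaction of 1.42 (0.75 to 2.09). Pex19, which inserts peroxisomal membrane proteins, had 100 and 42 in Input and 166 and 146 in IP, an interaction of 1.37 (0.76 to 1.98). Rangap1, the GTPase-activating protein of nuclear transport, had 123 and 56 in Input and 578 and 480 in IP, an interaction of 1.17 (0.68 to 1.66). In these 3 genes the IP ratios lay between 0.05 and 0.14, so nearly all of the interaction came from a lower Input.

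Srxn1, the sulfiredoxin that restores peroxiredoxins, had 470 and 289 in Input and 6245 and 5948 in IP, an interaction of 0.94 (0.72 to 1.15). Prnp, the prion protein gene, stood at 1.07 (0.69 to 1.44) and Flot1, a membrane raft scaffold, at 0.97 (0.60 to 1.34). Unlike the preceding 3 genes, Srxn1 and Prnp had IP ratios of 0.26 and 0.25, close to the 1.2-fold limit. By list, this direction held 3 matrix genes (Col1a2, Itga7 and Timp2) and 2 each of the synaptic (Snap25 and Sv2c), glycolytic (Pfkp and Slc2a3), satellite glia (Apoe and Glul), antioxidant, actin and Zfp lists, with no list giving more than 3 of the 81 genes.

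The 210 genes higher in Input with an IP ratio under 1.2-fold formed the largest class, and ribosomal proteins were its most frequent listed genes. The Input only class with both directions was 5.41% of all members. The 210 genes held 19 of 46 large-subunit and 9 of 32 small-subunit ribosomal proteins, and 6 of 27 other TOP messages. They also held 8 of 75 mitochondrial ribosomal proteins, 8 of 41 antioxidant enzymes and 7 of 48 proteasome genes. A further 7 came from the 41 genes of the ER translocon and signal recognition particle list. Outside these lists, Tprkb, of the complex that modifies tRNA, had 58 and 181 Input counts and 158 and 111 IP counts, an interaction of -1.85 (-2.40 to -1.29). Rnf181, a ubiquitin ligase gene, had 228 and 547 in Input and 619 and 412 in IP, an interaction of -1.54 (-1.83 to -1.26). Aimp2, a scaffold of the tRNA synthetase complex, had 69 and 179 in Input and 378 and 289 in IP, an interaction of -1.46 (-1.91 to -1.00). Each was more than 2-fold higher in Input shGpr151.

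Cep85, a centrosomal protein, had 800 and 2079 Input counts, an interaction of -1.48 (-1.71 to -1.26), and Bex3, an adaptor of the neurotrophin receptor p75, had 477 and 1047, an interaction of -1.38 (-1.63 to -1.13). Ssbp1, the single-stranded DNA-binding protein of mitochondria, had 755 and 1490, an interaction of -1.24 (-1.49 to -1.00). Opposite signs of the 2 ratios were found in 198 of the 210 genes and in 77 of the 81 higher ones. The call rule itself favours such signs, because the IP ratio is limited to 1.2-fold and the interaction must reach 1.5-fold.

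Large-subunit ribosomal proteins had the highest share of called members among the described lists, 45.7%, and those of the small subunit 28.1%. Of the 78 ribosomal protein members, 76 had an interaction below 0, 30 were called lower and 0 higher, beside 6.08% of all members called lower. The Input ratio was above 0 in 74 and shifted higher in 53, with a median of 0.37, and the IP ratio was below 0 in 77, with a median of -0.15. The IP ratios were nearly uniform, with an SD over the 78 genes of 0.055 against 0.27 for the Input ratios. The differences among ribosomal proteins in the interaction thus came almost entirely from Input.

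Within the group, Rps4x had 4905 and 9066 Input counts and 4643 and 3209 IP counts, an interaction of -1.11 (-1.20 to -1.03). Rps6, the small-subunit protein phosphorylated downstream of mTOR, had 9923 and 17752 in Input and 5908 and 4279 in IP, an interaction of -1.00 (-1.07 to -0.93). Rpl22, whose protein carries the tag in neurons, had 4272 and 7182 in Input and 1856 and 1336 in IP, an interaction of -0.92 (-1.03 to -0.80). At the other end stood Rps28 at 0.20 and Rps29 at 0.07, with Input ratios of -0.37 and -0.26, and Rpl41 at -0.06. These 3 genes had Input ratios below 0 where the group as a whole was above 0, but IP ratios of -0.17 to -0.22 like the rest. Ribosomal protein genes have many processed pseudogenes, and the sources used here do not give how shared reads were counted.

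**Figure D3:**
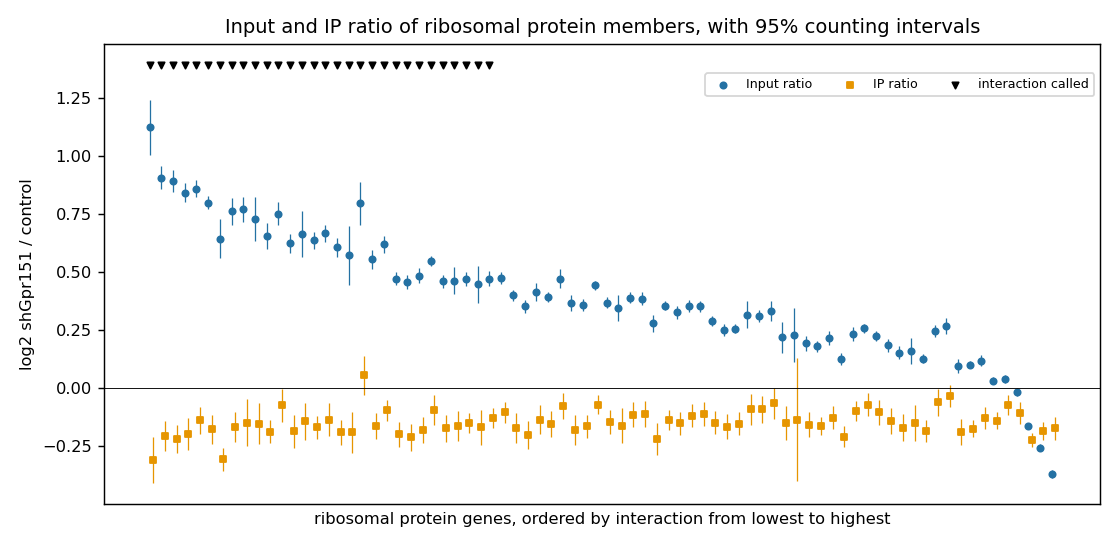
Log2 ratio of shGpr151 over control in Input (blue circles) and IP (orange squares) for the 78 ribosomal protein members, ordered along the x axis by interaction from lowest to highest, with 95% counting intervals as vertical lines and triangles over the 30 called genes. The Input ratios fall from 1.12 to -0.37 along the order while the IP ratios stay between -0.31 and 0.06.

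The start sites of a few members are shown to give the TOP letters, and a smaller share of all ribosomal protein genes than of this selection held them at the annotated start. The windows below run from 10 bases before to 19 bases after the annotated start in RefSeq (GRCm38.p6), sense strand, and capitals mark the first match to a C followed by at least 4 letters that are each C or T, beginning within 5 bases of the start. Rps6, Rpl12, Rpl15 and Rack1 hold the tract, and Rps4x does not hold it at its annotated start, although all 5 were called lower in the Input only class.
Rps6 (chr4:86857348-86857377, minus strand): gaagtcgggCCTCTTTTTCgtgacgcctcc
Rpl12 (chr2:32961702-32961731, plus strand): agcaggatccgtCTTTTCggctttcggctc
Rpl15 (chr14:18270967-18270996, minus strand): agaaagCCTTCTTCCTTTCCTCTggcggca
Rack1 (chr11:48800350-48800379, plus strand): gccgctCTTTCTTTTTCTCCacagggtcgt
Rps4x (chrX:102189372-102189401, minus strand): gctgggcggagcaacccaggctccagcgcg

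The tract was about as frequent in called as in uncalled genes. It was found in 18.3% of all 32851 windows. By gene, it was found in 23.8% of members with a window, in 26.6% of members called higher and in 22.1% of those called lower. A gene counted where any of its windows held the tract, so shares by gene and by window differ in unit. Among ribosomal proteins, 28 of the 58 with a window held it (48.3%), with 10 of the 24 called lower (41.7%) and 18 of the 34 not called (52.9%). The median interaction was -0.48 in the 28 ribosomal proteins with the tract and -0.53 in the 30 without. A match describes the annotated window only, and an annotated start can lie some bases from the start in use.

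Other TOP messages followed the ribosomal proteins in part. Of 27 such members, 6 were called lower, all through Input, and 1 higher, the poly(A)-binding protein gene Pabpc1 described above. The share called was 25.9%, beside 10.1% of all members. Rack1, a scaffold of the small subunit, had 1853 and 3057 in Input and 2320 and 1691 in IP, an interaction of -0.87 (-1.00 to -0.75). The elongation factor gene Eef1b2 stood at -0.74 (-0.82 to -0.66). Tpt1, an abundant TOP message, stood at -0.56 (-0.62 to -0.50), below the 1.5-fold limit. The list median was -0.23, beside 0.007 over all members.

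Proteasome, mitochondrial import and antioxidant lists had Input medians above 0 and IP medians below 0. Each list had fewer genes shifted in IP than in Input, as was the case over all members. Of 48 proteasome genes, 10 were called lower and 0 higher, or 20.8% called beside 10.1% of all members. In Input 25 of the 48 were shifted higher, beside 13.5% of all members. The proteasome medians were 0.32 in Input and -0.11 in IP, with 5 IP shifts, all lower. By contrast, 52 genes of ubiquitin conjugation and removal had 11 Input shifts in each direction and a median interaction of -0.003. Of these 52 genes, 7 were called lower and 2 higher, or 17.3% called, which is also above the share of all members. Psma7, a core subunit, had 1983 and 2621 in Input and 4520 and 3198 in IP, an interaction of -0.60 (-0.70 to -0.49), close to the limit. Of 21 mitochondrial import genes, 4 were lower, among them the outer membrane receptor gene Tomm20 at -1.06 (-1.32 to -0.79) on 245 and 470 Input counts.

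Of 41 genes of the ER translocon and signal recognition particle list, which sends proteins into the secretory pathway, 11 were called lower and 1 higher. The share called was 29.3%, beside 10.1% of all members. The list's name pattern also took Ostf1, which is not part of that machinery. Ssr4, a translocon-associated subunit, had 2809 and 4054 in Input and 1636 and 1181 in IP, an interaction of -0.69 (-0.82 to -0.57). Rpn2, of the oligosaccharyltransferase, was the exception at 0.75 (0.62 to 0.89), with 17037 and 12187 in Input but 968 and 944 in IP. Of 41 antioxidant enzymes, 10 were lower and 3 higher, or 31.7% called beside 10.1% of all members. Sod1, the cytosolic superoxide dismutase, had 1414 and 2226 in Input and 10183 and 8030 in IP, an interaction of -0.69 (-0.80 to -0.59), against the higher Srxn1 described above.

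In interferon response genes the IP median was farther from 0 than the Input median. Of 14 members, 7 were shifted lower in IP, beside 6.24% of all members, and 3 higher in Input, beside 13.5%. The medians were -0.33 in IP and 0.16 in Input, yet only Bst2 and Ifi35 were called, or 14.3%. Ifi35 had 32 and 65 in Input and 246 and 151 in IP, an interaction of -1.42 (-2.10 to -0.74), and its columns overlapped in both fractions. Ifitm3, an antiviral membrane protein, had 2937 and 2794 in Input and 2076 and 1100 in IP, an IP ratio of -0.59 with an Input ratio of -0.05, and its interaction of -0.54 (-0.67 to -0.41) fell short of 1.5-fold. The call rule on the interaction therefore left out a gene whose change lay almost wholly in IP.

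Of 9 genes of MHC class I and antigen processing, 0 were called, although 8 were below 0 and the median was -0.55. B2m, the light chain, had 4014 and 4836 in Input and 5464 and 3641 in IP, an interaction of -0.55 (-0.63 to -0.46). In the BORC and BLOC list, of lysosome positioning and biogenesis, Kxd1 was the 1 called gene of 9, or 11.1% beside 10.1% of all members. Borcs7, of the same complex as Kxd1, stood at -0.69 (-1.16 to -0.21) and Bloc1s2 at -0.58 (-1.02 to -0.14), and neither reached 3 standard errors.

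**Figure D4:**
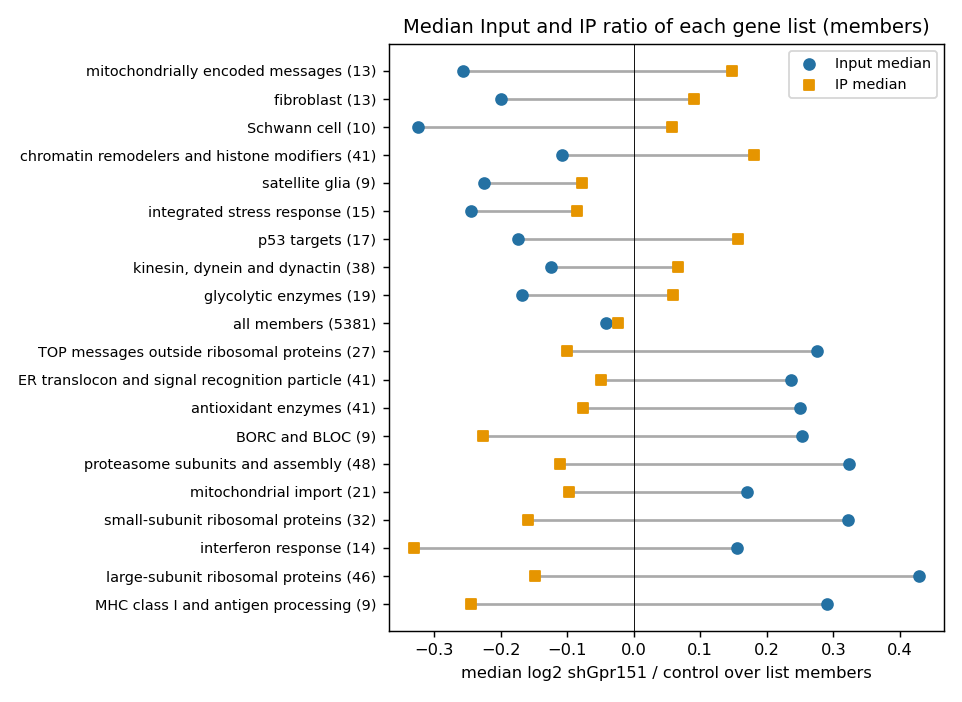
Median log2 ratio of shGpr151 over control in Input (blue circles) and IP (orange squares) for the 19 described gene lists and all members, with the number of members in brackets, ordered by the median interaction. Lists at the bottom have Input medians above 0 and IP medians below 0, from 0.43 and -0.15 for large-subunit ribosomal proteins, and lists at the top have Input medians below 0 and mostly IP medians above 0, as -0.26 and 0.15 for mitochondrially encoded messages, except satellite glia and the integrated stress response, whose IP medians of -0.08 and -0.09 are also below 0.

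At the other end, mitochondrially encoded messages had medians of -0.26 in Input and 0.15 in IP. Of 13 members, 6 were shifted lower in Input and 3 higher in IP, with no shift the other way, and 2 were called higher, beside 4.03% of all members. mt-Nd4, of complex I, had 5508 and 4495 in Input and 1356 and 1370 in IP, an interaction of 0.61 (0.49 to 0.74). mt-Co3, of cytochrome c oxidase, stood at 0.57 (0.42 to 0.71) and mt-Co1 at 0.45 (0.37 to 0.54). These messages are translated inside mitochondria by ribosomes without Rpl22, and their median log2 IP over Input ratio in control was -5.21.

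Chromatin genes were the list with the most IP shifts in the higher direction, 10 of 41, beside 6.73% of all members. Of the 41, 4 were called higher and 0 lower, or 9.76% beside 4.03% of all members called higher. Setd1b, a histone H3 methyltransferase, had 87 and 50 in Input and 142 and 164 in IP, an interaction of 1.31 (0.72 to 1.91). Kdm2a, a histone demethylase, had 1488 and 1018 in Input but 72 and 85 in IP, an interaction of 1.09 (0.63 to 1.56). Crebbp, the acetyltransferase CBP, had 970 and 738 in Input and 312 and 301 in IP, an interaction of 0.65 (0.38 to 0.92). Of these, Kdm2a and the IP only gene Kat8 were mostly left behind by the pulldown and Setd1b was not.

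Among 38 kinesin, dynein and dynactin genes 2 were higher and 1 lower, or 7.89% called beside 10.1% of all members. Klc1, a kinesin light chain, stood at 0.60 (0.30 to 0.90) with Kif1c above, and Dynlt1c, a dynein light chain, at -0.60 (-0.91 to -0.29). The glycolytic list split, with 3 higher and 3 lower of 19, or 31.6% called beside 10.1% of all members. Tpi1 had 376 and 703 in Input and 3185 and 2245 in IP, an interaction of -1.10 (-1.30 to -0.90), and Ldhb stood at -1.11 (-1.42 to -0.80). Pkm had 1105 and 896 in Input and 18725 and 18583 in IP, an interaction of 0.60 (0.47 to 0.73), so enzymes of the same pathway moved in opposite directions. The other 2 higher genes of the list were Pfkp and Slc2a3, and Slc2a3 encodes a glucose transporter, not an enzyme.

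The integrated stress response list was split too, with 1 of 15 called in each direction, or 13.3% called beside 10.1% of all members. Ddit3, the factor CHOP, had 331 and 442 in Input and 988 and 651 in IP, an interaction of -0.71 (-0.96 to -0.46). Ddit4, an inhibitor of mTOR, had 66 and 39 in Input and 473 and 454 in IP, an interaction of 1.01 (0.41 to 1.61). Of 17 p53 targets 0 were called. Cdkn1a had 380 and 356 in Input and 1200 and 733 in IP, an interaction of -0.31 (-0.56 to -0.06) against a list median of 0.27. Csf1, the macrophage growth factor of injured sensory neurons, had 62 and 64 in Input and 193 and 170 in IP, an interaction of 0.08 (-0.51 to 0.66).

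Marker lists named for cells other than sensory neurons differed in sign. They are not exclusive to untagged cells, since Thy1 was listed for both fibroblasts and sensory neurons. The medians were 0.40 for fibroblast, 0.40 for Schwann cell and 0.35 for satellite glia markers, but -0.10 for 11 macrophage and immune markers (0 called) and -0.48 for 5 endothelial and mural markers (1 called lower, Myl9). Of 13 fibroblast markers 2 were called higher, or 15.4% beside 4.03% of all members. Col3a1 stood at 1.07 (0.51 to 1.63) on 76 and 50 Input counts and 343 and 383 IP counts, and Col1a2 at 0.83 (0.49 to 1.17). Of 10 Schwann cell markers 0 were called. At an Input minimum of 50 the Schwann cell median was 0.15 and that of satellite glia 0.17. Of 9 satellite glia markers 2 were higher and 1 lower, or 33.3% called beside 10.1% of all members. Apoe had 955 and 632 in Input and 2456 and 2127 in IP, an interaction of 0.69 (0.53 to 0.86), and Glul stood at 0.75 (0.29 to 1.22), whereas Fabp7 stood at -0.63 (-0.81 to -0.44).

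The levels of whole marker lists are given as summed CPM over the genes listed, as ranges over columns. The 25 of 27 sensory neuron markers that were listed summed to 1342 to 1392 in Input control, 1464 to 1556 in Input shGpr151, 19605 to 19746 in IP control and 18980 to 19218 in IP shGpr151. On CPM the neuron sum thus rose the most in fold from Input to IP with either virus, and the sums of the other lists below were also higher in IP. Trpv1 and Mrgprd were not among the 9073 genes. The neuron sum is weighted to abundant markers, and the median marker went the other way in Input. Over the 18 sensory neuron members the median ratio was -0.21 in Input and -0.03 in IP. In Input 6 were shifted lower and 1 higher. Their median interaction was 0.16, with 12 above 0 and 6 below, and 2 called higher and 1 lower. The 15 of 18 fibroblast markers summed to 747 to 761, 643 to 669, 2616 to 2687 and 2926 to 2993 in the same order. The 11 of 14 Schwann cell markers summed to 458 to 485, 387 to 418, 1671 to 1815 and 1670 to 1710. The 13 of 15 satellite glia markers summed to 6233 to 6413, 5958 to 6069, 6689 to 6746 and 6444 to 6508. The 13 of 18 macrophage and immune markers summed to 481 to 505, 493 to 526, 686 to 714 and 727 to 735, and Ptprc and Adgre1 were not among the listed genes, nor were the haemoglobin genes. The 10 of 14 endothelial and mural markers summed to 187 to 192, 236 to 257, 418 to 439 and 404 to 448. The part of these cells in the interactions of other genes was not tested.

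The interaction varied with how well a transcript was retained. On TMM library sizes, the log2 IP over Input ratio is 2.18 below the same ratio on CPM in control and 2.20 below it in shGpr151, and the values here are on TMM sizes. Of the 462 members with a mean ratio over both treatments below -4, 80 were called higher and 2 lower, with a median interaction of 0.45, an Input median of -0.32 and an IP median of 0.13. Of the 2058 members between -2 and 0, 32 were called higher and 180 lower, with a median of -0.13. Of the 2063 above 0, 74 were higher and 69 lower, with a median of 0.11. The direction of calls thus shifted from higher at the poorly retained end to lower in the middle.

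**Figure D5:**
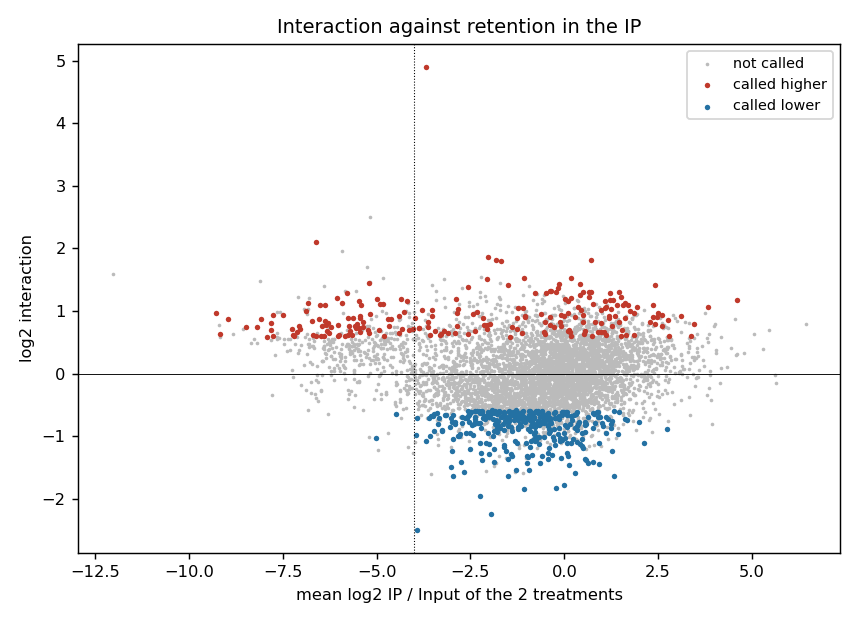
Log2 interaction of each member against its mean log2 IP over Input ratio over both treatments on TMM sizes, with called genes in colour; the dotted line stands at -4. To its left 80 genes are called higher and 2 lower, and between -2 and 0 180 are called lower and 32 higher.

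By class, the median log2 IP over Input ratio in control was -4.99 for the 10 higher genes of the IP only class and -3.99 for the 97 higher genes of the opposite class. It was -0.37 for the 87 lower genes of the opposite class, -0.47 for the 81 higher and -0.65 for the 210 lower genes of the Input only class. In the 100 members whose Input CPM exceeded the IP CPM over 16-fold with either virus, 23 were called higher and 0 lower. The origin of the IP counts of such transcripts was not tested. Without the 462 members below -4, 137 members were called higher and 325 lower, and 140 were opposite. The 210 genes of the largest class were little touched by this, since 2 of them were among the 462.

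The share of called genes depended on counts. It was 3.14% where the lower Input sum was 20 to 50, 9.73% from 50 to 200, 18.5% from 200 to 1000 and 21.99% above. Just inside the minimum, members with a lower Input sum of 20, 21 and 22 had median interactions of 0.04, 0.09 and 0.17, and genes just outside, at 17, 18 and 19, had 0.21, 0.15 and 0.19, with median counting standard errors of 0.47 to 0.53 over both sides. Of the 3692 genes below the minimum, 32 were higher and 9 lower by the same rule. In the others of the 52 lists with at least 8 members, 33 in all, medians ran from -0.36 to 0.24 and the share called from 0.0% to 23.5%.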

How the data were processed

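The authors deposited 1 table of whole-number counts per gene for the 12 columns, not normalized, from nanopore cDNA-PCR libraries, per the labels' protocols. Without versions, minimap2, Salmon, GRCm39 and mm39 are named in the submitters' processing notes. The sources used here do not give the use of strand or the treatment of reads shared by paralogs. Transcript length was not analysed. Columns were mapped to samples by name.

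Counts of the 3 columns of a group were summed. Ratios on the log2 scale divide these sums by summed effective library sizes by the trimmed mean of M values (TMM, edgeR 4.0.16, R 4.3.3, after filterByExpr at a minimum count of 10), with Wald intervals on counting error. CPM values are counts scaled to the library total. No test across samples was possible with 1 sample per group, and calls describe these 4 libraries. Gene lists are described by counts and medians beside those of all members. Genes were named by rule: from each direction of each class the 8 whose 95% interval lay farthest from 0, up to 4 members of each described list by interaction over its standard error, and Gpr151 and Csf1, without predicted models, Riken clones and pseudogenes; Rpl22, Rps28, Rps29, Rpl41 and genes given only as list content were added after their values were seen. A gene that this rule takes is not reported here. Described lists were those with 1 of the 8 highest or lowest medians or at least 25.0% of members called. Members, lists and rules were chosen with earlier results of these data known. Scripts were tested on simulated data. DESeq2 1.42.0 and edgeR tests on the 12 columns were alternatives. Figures were drawn with matplotlib 3.10.9.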

Additional observations from a re-analysis of the deposited data

Results flagged for a closer look

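Of the 184 genes with opposite shifts in Input and IP, 133 had no overlap of columns between treatments in either fraction, so that every column of the IP moved one way and every column of the Input the other way. The difference was not tested across samples, because the 3 columns of a group count as 1 sample. Columns that differ by counting noise alone can separate where counts are high. The 184 genes were selected for a shift in both fractions, which itself favours such separation. The share of all members without overlap is not given here, so the count of 133 has no background beside it. Rpl9, Timm10, Nop16, Lrrc17 and Furin were among the 133, and Kxd1 was not.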

How the results depend on the processing

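On the 12 columns taken as replicates, edgeR's quasi-likelihood test called 385 members higher and 707 lower, and 543 of the 544 genes called here were among them. The common coefficient of variation over these columns was 1.22%, so the test worked almost on counting error alone. The overlap is therefore no separate check of the calls. With the replicate block the counts were the same, 385 and 707, and same-numbered columns did not deviate together (correlations of -0.012 to 0.019 over 18 pairs), so the numbers pair nothing. DESeq2 called 270 higher and 670 lower. With the summed libraries and an assumed coefficient of variation of 10% between samples, edgeR called 2 higher (Lrrc17 and Pabpc1) and 12 lower, and at 20% 1 higher (Pabpc1) and 0 lower. A fold of 2 gave 70 higher, 84 lower, 1 IP only, 58 Input only and 67 opposite. With 2 standard errors there were 481 higher, 491 lower, 53 IP only and 472 Input only. With shifts counted at 1.5-fold, 10 genes were opposite. Chosen after seeing the data, an Input ratio under 1.1-fold left 1 IP only gene, and leaving out the 462 poorly retained members left 137 higher. Leaving out 1 column gave 189 to 217 higher, 305 to 334 lower, 15 to 25 IP only, 264 to 290 Input only and 158 to 191 opposite. Total counts gave 238 higher and 303 lower, and RLE sizes 174 and 405. At an Input minimum of 50 the median of the integrated stress response list reversed to -0.24, and the Schwann cell and satellite glia medians were 0.15 and 0.17. Of 82 named called genes, 23 lost the call without 1 column, namely Bet1, Bst2, Cnbd2, Col3a1, Crebbp, Ddit4, Dynlt1c, Fabp7, Glul, Kat8, Klc1, Pkm, Psma7, Psmb1, Rnf8, Sec11c, Siglec1, Slbp, Timm17a, Tmem14c, Tmem29, Vmn2r63 and mt-Nd4. Intervals cover counting error only, and Input depth limits most single genes.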
